A study of Mus musculus with 4 samples.

Results

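The 10 genes described here belong to the fibroblast growth factor (FGF) and extracellular signal-regulated kinase (ERK) pathway, and were taken by name from a deposited table of 50559 genes. They are a ligand (*Fgf4*), 2 receptors (*Fgfr1* and *Fgfr2*), 3 inhibitors of the signal (*Spry2*, *Spry4* and *Spred1*), 2 phosphatases (*Dusp6* and *Dusp4*) and 2 transcription factors (*Etv4* and *Etv5*). All 10 were in the table, and all 10 had a mean of at least 10 reads over the libraries, as did 18586 genes, which are called the tested genes here.

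The libraries were poly(A)+ RNA-seq of E14 mouse embryonic stem cells (ESCs), grown on gelatin in medium with LIF, which per the study's methods carried a tdTomato reporter driven by the MERVL promoter. There were 4 libraries, 1 per group. In shScram+EV, called the scrambled library below, the cells carried a control hairpin and an empty vector. The other 3 carried a *Ythdf2* hairpin, together with the empty vector in shYthdf2+EV (the knockdown library), with wild-type YTHDF2 in shYthdf2+DF2WT (the wild-type library), or with YTHDF2 mutated at m6A binding in shYthdf2+DF2Mut (the mutant library). Where 4 values are given in a row, they follow that order. YTHDF2 is a cytoplasmic reader of N6-methyladenosine (m6A) that speeds the decay of the transcripts it binds, and the comparison of both constructs asks whether an effect of the knockdown depends on m6A binding. The hairpins came by lentivirus from a U6 promoter in puromycin-selected stable lines, so all 4 libraries are of transduced, selected cells. The labels do not say which hairpin against *Ythdf2* was used, and 1 line stands for each group. Since no group had a replicate, no p-value is given. Every interval below is a 95% Clopper-Pearson interval on read pairs and covers counting error only.

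FGF4 is made and secreted by ESCs and acts back on them through FGF receptors, which pass the signal through the adaptors FRS2, GRB2 and SOS to RAS, RAF, MEK and ERK. Active ERK moves ESCs away from the naive state towards lineage commitment, and in the inner cell mass it favours primitive endoderm over epiblast. The pathway also induces its own brakes: Sprouty and SPRED proteins act on the RAS and RAF steps, dual-specificity phosphatases (DUSPs) remove the activating phosphates from ERK, and the ETS factors ETV4 and ETV5 carry the transcriptional output. In many cells, genes of the last groups are held down by the repressor capicua (CIC) until ERK phosphorylates it.

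The CIC sites known from such genes are variants of a short octamer, so the promoters were searched for them as sequence context for the genes whose levels differed most. The octamers searched, on both strands, were TGAATGAA, TGAATGAG, TGAATGGA, TGAATGGG, TCAATGAA, TCAATGAG, TCAATGGA and TCAATGGG. The RefSeq promoter table (build GRCm38.p6, 250 bases before to 50 bases after each start) held entries for 6 of the 10 genes, *Fgf4*, *Fgfr2*, *Spry2*, *Spred1*, *Dusp6* and *Etv5*, the last with 2 starts. *Fgfr1*, *Spry4*, *Dusp4* and *Etv4* had no entry. At least 1 octamer was found for 3 of the 6 genes, *Spry2*, *Dusp6* and *Etv5*, against 7.02% of all 32851 promoters and 6.24% of the 13124 tested genes with a promoter. The stretches upstream of the start that hold the matches are printed 5′ to 3′ on the gene's strand, with the matches in capitals.
*Dusp6* (chr10:99263195-99263230, plus strand, GRCm38.p6): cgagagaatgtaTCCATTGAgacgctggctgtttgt
*Spry2* (chr14:105896854-105896885, minus strand, GRCm38.p6): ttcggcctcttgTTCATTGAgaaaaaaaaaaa
*Etv5* (chr16:22438480-22438618, minus strand, GRCm38.p6): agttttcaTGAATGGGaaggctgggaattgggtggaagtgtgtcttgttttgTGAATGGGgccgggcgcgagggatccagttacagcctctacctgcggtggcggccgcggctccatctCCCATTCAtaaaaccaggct

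The *Dusp6* match began at position -24 from the start and lay on the opposite strand, and a further copy of the same octamer lay directly after the start and is not shown. The *Spry2* match began at position -54, also on the opposite strand. Those of *Etv5* began at positions -242, -198 and -131, the first and second on the gene's strand and the last on the other. They stood before the downstream of the 2 *Etv5* starts, and the 300 bases at the other start held none. A promoter with at least 2 octamers was found in 0.444% of all promoters, and one with at least 3 in 0.0792%. A match says only that these letters are in the window, and no binding was measured here.

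*Ythdf2* itself (chr4:131912227-131939567, minus strand, mm39) had 2806 reads in the scrambled library, 662 in the knockdown library, 7661 in the wild-type library and 6925 in the mutant library. On CPM, the read count as a share of the library total on a fixed scale, with TMM factors that set the libraries to a common level over the bulk of genes, this was 20.7% of the scrambled level in the knockdown library, 262% in the wild-type library and 245% in the mutant library. The construct's own reads are part of these counts. Total counts lay between 31533129 and 35742335 reads, and TMM factors between 0.976 and 1.01. Summed CPM of 8 ESC markers lay between 5329 and 5969, and none was at 0 in any library. Single markers differed more than the sum, and 5 of the 8 were higher after knockdown and 3 lower. *Zfp42* had 440.4, 660.7, 504.4 and 604.3 CPM, and *Tdgf1* had 1408, 1038, 1271 and 1092. *Dppa5a* had 737.2, 936.1, 1029 and 584.8 CPM. Mitochondrial transcripts took 8.44% of the reads in the scrambled library and between 6.14% and 6.76% in the other libraries.

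Compared per length, as CPM per kilobase of deposited exon length (RPKM), the transcription factor *Etv5* was the highest of the 10 genes in every library, from 79.5 to 102.8. It was followed in each library by *Fgf4* (57.4 to 70.7), *Etv4* (30.4 to 34.85) and *Fgfr1* (25.1 to 27.8). *Fgfr2* was the lowest in all 4, from 0.648 to 1.13. Between them, *Spred1*, *Dusp6* and *Spry2* changed places: *Spred1* led these in the scrambled library with 12.8 and stood below both in the knockdown library with 11.2.

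Of the 10 genes, 6 were higher after *Ythdf2* knockdown than with the scrambled hairpin (*Fgfr2*, *Spry2*, *Spry4*, *Dusp6*, *Dusp4* and *Etv5*). With the mutant against the wild type, a comparison that uses the other 2 libraries, these 6 were also higher. They were lower with wild-type YTHDF2 than with the empty vector, but that comparison shares a library with each of the others, so its sign is no separate evidence. The other 4 (*Fgf4*, *Fgfr1*, *Spred1* and *Etv4*) were slightly lower after knockdown. The largest differences were in the Sprouty genes, with *Spry4* 1.97-fold and *Spry2* 1.67-fold higher in the knockdown library. Directions on knockdown were the same under each other scaling tried, under a larger prior count and after correcting for GC content and exon length, called the GC and length correction below.

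**Figure D1:**
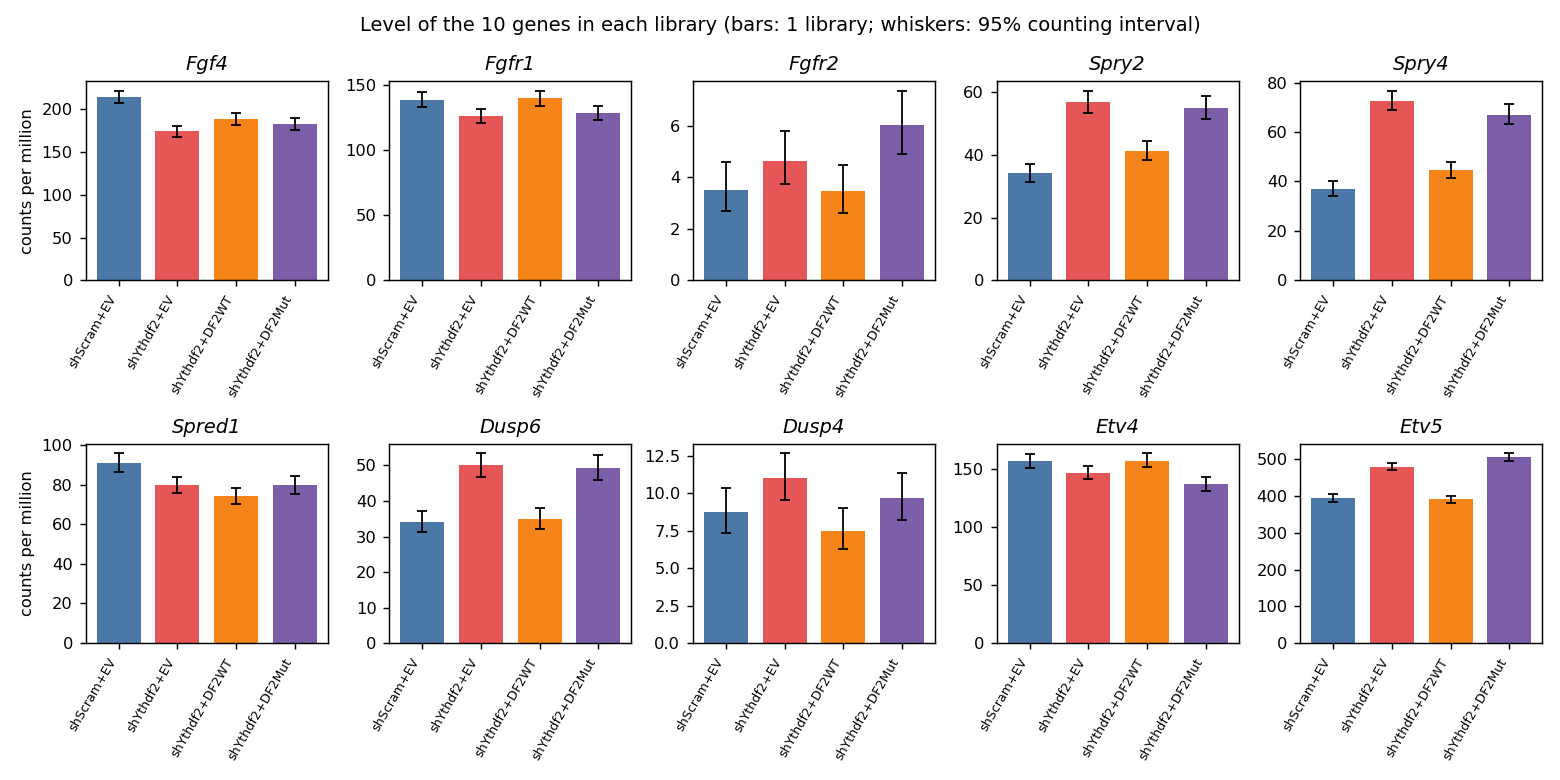
Level of each of the 10 genes, as TMM-scaled CPM (vertical axis, each panel with its own scale from 0), in the 4 libraries. Each bar is 1 library and each whisker a 95% counting interval. *Spry2*, *Spry4*, *Dusp6* and *Etv5* are high in shYthdf2+EV and shYthdf2+DF2Mut and low in the other 2 libraries.

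*Fgf4* (chr7:144415123-144418982, plus strand, mm39), the autocrine ligand of ESCs, had 6774 reads in the scrambled library, 6253 in the knockdown library, 6205 in the wild-type library and 5802 in the mutant library, or 214.4, 173.9, 188.5 and 182.4 CPM. The scrambled library was the highest and stood apart from the next, while neighbours among the other 3 lay within counting error. The log2 ratio of the knockdown library to the scrambled library was -0.30 (-0.37 to -0.23). Against the knockdown library, the wild-type construct gave 0.12 (0.04 to 0.19) and the mutant 0.07 (-0.005 to 0.14).

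*Fgfr1* (chr8:26008775-26065734, plus strand, mm39), the more abundant of both receptors, had 4383, 4535, 4599 and 4082 reads in the 4 libraries, or 138.7, 126.2, 139.7 and 128.3 CPM. Its highest level was 1.11 times its lowest, the narrowest range of the 10 genes. The knockdown ratio was -0.14 (-0.22 to -0.05), and the wild-type construct stood 0.15 (0.06 to 0.23) above the knockdown library, which became -0.035 after the GC and length correction. *Gm31288*, on the opposite strand, shares 179 exon bases with *Fgfr1* and had between 74 and 117 reads, and *Gm16159*, also opposite, shares 125 bases and had between 8 and 24, and as counting ignored strand, reads over the shared bases were given to neither gene.

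*Fgfr2* (chr7:129764181-129868538, minus strand, mm39), the receptor enriched in primitive endoderm, had 111, 167, 114 and 192 reads in the same order, or 3.51, 4.65, 3.46 and 6.04 CPM. Neighbouring libraries in its order lay within counting error, and only wider steps stood clear. The knockdown ratio was 0.40 with an interval that held 0 (-0.11 to 0.91), and the mutant stood 0.80 (0.31 to 1.30) above the wild-type construct and 0.78 (0.28 to 1.27) above the scrambled library. The summed level of 7 markers of primitive endoderm had the same order of libraries as *Fgfr2*. It was 16.2 CPM in the scrambled library, 23.1 in the knockdown library, 12.6 in the wild-type library and 24.1 in the mutant library. Of the 7, 6 were higher after knockdown and 7 were higher with the mutant than with the wild type, and *Foxa2* was at 0 in the scrambled library. Many of these differences lay within counting error. After knockdown the interval lay above 0 only for *Gata6*, *Dab2* and *Foxa2* (23.2% of tested genes). For mutant against wild type it did so only for *Gata6*, *Pdgfra* and *Dab2* (23.9%). The list was not uniform: *Gata6*, a defining factor of that lineage, had 85, 163, 69 and 143 reads, while *Gata4*, another, had 133, 121, 72 and 71. In bulk samples, more cells of a type and more RNA per cell cannot be told apart, and the part of these cells in the *Fgfr2* values was not tested.

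*Spry4* (chr18:38719300-38734400, minus strand, mm39), a Sprouty inhibitor of RAS and RAF signalling, had 1166 reads in the scrambled library, 2614 in the knockdown library, 1463 in the wild-type library and 2131 in the mutant library, or 36.9, 72.7, 44.45 and 67.0 CPM. The knockdown and mutant libraries were high and lay within counting error of each other, the wild-type library was much lower, and the scrambled one was lower still. Knockdown gave a ratio of 0.98 (0.84 to 1.12). The wild-type construct stood -0.71 (-0.84 to -0.58) from the knockdown library and the mutant -0.12 (-0.24 to 0.00), with 0.59 (0.45 to 0.73) between mutant and wild type. The interval of mutant against knockdown only just held 0, with its upper end at 0.0003. On reads in place of read pairs it excluded 0 (-0.20 to -0.04). The wild-type library was still 0.27 (0.11 to 0.43) above the scrambled library.

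*Spry2* (chr14:106129381-106134899, minus strand, mm39), the related Sprouty gene whose promoter stretch is printed above, had 1079, 2047, 1359 and 1750 reads in the same order, or 34.15, 56.9, 41.3 and 55.02 CPM. Its order of libraries was that of *Spry4*, with the same neighbours apart and within error. Knockdown against scrambled was 0.74 (0.59 to 0.89), the wild-type construct gave -0.46 (-0.61 to -0.32) and the mutant -0.05 (-0.18 to 0.08) against the knockdown library. Mutant against wild type was 0.41 (0.27 to 0.56), or 0.25 after the GC and length correction. A same-strand locus, *LOC118568135*, shares 637 exon bases with *Spry2*, and had at most 7 reads.

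*Spred1* (chr2:116951552-117012760, plus strand, mm39), which brings neurofibromin to RAS, did not follow the Sprouty genes. It had 2876, 2862, 2438 and 2534 reads, or 91.0, 79.6, 74.1 and 79.7 CPM. The scrambled library stood above the rest, whose neighbours lay within counting error. The knockdown ratio was -0.19 (-0.30 to -0.09), and mutant against knockdown was 0.00 (-0.11 to 0.11). Mutant against wild type was 0.11 (-0.01 to 0.22) and turned to -0.24 after the GC and length correction, and wild type against knockdown turned from -0.10 to 0.15.

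*Dusp6* (chr10:99098676-99103351, plus strand, mm39), a cytoplasmic phosphatase of ERK and a standard readout of FGF signalling, had 1081, 1800, 1151 and 1569 reads in the 4 libraries, or 34.2, 50.1, 35.0 and 49.3 CPM. The libraries formed a high and a low pair: knockdown and mutant lay within counting error of each other, as did wild type and scrambled. The ratios were 0.55 (0.40 to 0.71) for knockdown against scrambled, -0.52 (-0.67 to -0.36) for wild type against knockdown, -0.02 (-0.16 to 0.12) for mutant against knockdown and 0.50 (0.34 to 0.65) for mutant against wild type. *Gm34921*, on the opposite strand, shares 306 exon bases and had at most 2 reads in any library.

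*Dusp4* (chr8:35274764-35287048, plus strand, mm39), a nuclear phosphatase of ERK and related kinases, had 277, 396, 247 and 308 reads, or 8.77, 11.02, 7.50 and 9.68 CPM. It had the same signs as *Dusp6* in these 4 comparisons, but neighbours in its order lay within counting error throughout. Its knockdown ratio of 0.33 (0.01 to 0.66) and mutant to wild-type ratio of 0.37 (0.01 to 0.72) had intervals that barely cleared 0, while wild type against knockdown was -0.55 (-0.88 to -0.22).

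*Etv5* (chr16:22200063-22258320, minus strand, mm39), an ETS factor induced by FGF signalling, was the deepest of the 10 genes with 12476, 17273, 12877 and 16083 reads, or 394.8, 480.5, 391.2 and 505.6 CPM. Mutant and knockdown were high, and scrambled and wild type were low and within counting error of each other. Its knockdown ratio was 0.28 (0.24 to 0.33), wild type against knockdown was -0.30 (-0.34 to -0.25), and mutant against wild type was 0.37 (0.32 to 0.42). The mutant stood 0.07 (0.03 to 0.12) above the knockdown, which was 0.017 with the GC and length correction.

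*Etv4* (chr11:101660573-101677963, minus strand, mm39), the close relative of *Etv5*, went another way, with 4960, 5274, 5179 and 4362 reads, or 157.0, 146.7, 157.3 and 137.1 CPM. Wild type and scrambled were the highest and lay within counting error of each other, knockdown was lower and the mutant was the lowest. The knockdown ratio was -0.10 (-0.18 to -0.02). Wild type against knockdown was 0.10 (0.02 to 0.18) and mutant against wild type -0.20 (-0.28 to -0.12), and both turned sign after the GC and length correction, to -0.13 and 0.069. *Gm39392*, on the opposite strand, shares 49 exon bases and had between 24 and 41 reads.

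**Figure D2:**
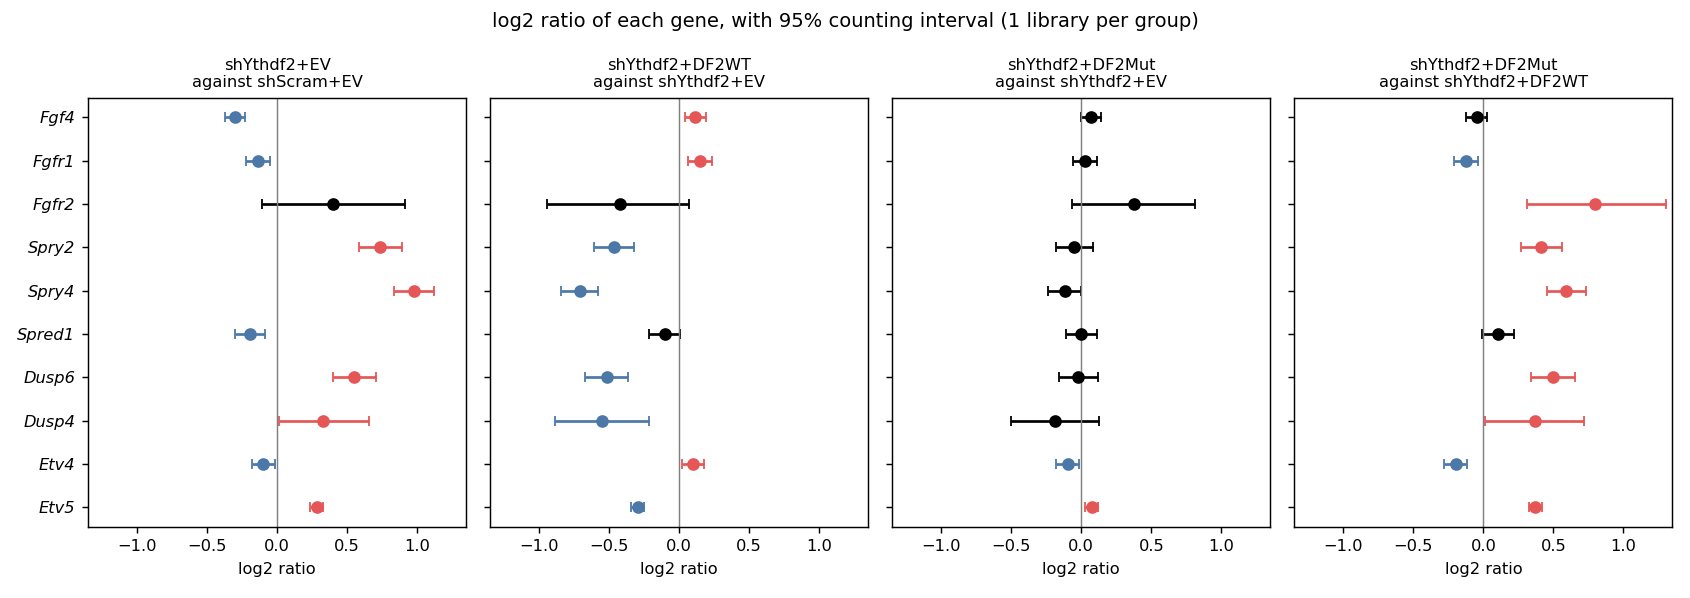
log2 ratio (horizontal axis) of each of the 10 genes in 4 comparisons, with 95% counting intervals, 1 library per group. Red points have intervals above 0, blue points below 0, and black points hold 0. In the mutant against knockdown panel, 8 of the 10 intervals hold 0.

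Set beside all tested genes, the 10 genes were seen at high depth, with a median mean count of 2260 reads against 382. After knockdown their median log2 ratio was 0.31, against 0.00 for all tested genes, with a range from -0.30 to 0.98. The upper quartile of all tested genes was also 0.31. As a ratio of summed counts, in which the deep genes weigh most, the value for the 10 genes was lower. None passed 2-fold in either direction, where 12.8% of tested genes did, though *Spry4* stood just inside that bound and passed it with scaling by total counts and with the GC and length correction. At least 1.5-fold higher were 2 of 10, *Spry2* and *Spry4* (13.8% of tested genes), with *Dusp6* a further one under total counts, at 0.593, and none was 1.5-fold lower (12.9%). The interval lay above 0 for 5 (23.2%) and below 0 for 4 (22.8%). Wide ratios are more common among shallow genes, so the 10817 genes with a mean of at least 200 reads are a closer background. There 5.60% were 1.5-fold higher and 4.59% 1.5-fold lower after knockdown, and of the 9 members at that depth, all but *Fgfr2*, 2 were higher and 0 lower.

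Wild type against knockdown gave other signs: the median was -0.36, and none passed 2-fold (10.8% of tested genes). Only *Spry4* was at least 1.5-fold lower (11.1%), joined by *Dusp4* at -0.76 with the GC and length correction, and none was 1.5-fold higher (12.2%). Among the genes with a mean of at least 200 reads, 3.56% were 1.5-fold lower and 4.09% higher. The interval lay below 0 for 5 genes (21.6%), *Spry2*, *Spry4*, *Dusp6*, *Dusp4* and *Etv5*, and above 0 for 3 (21.2%), *Fgf4*, *Fgfr1* and *Etv4*. With the mutant against the knockdown, the median was -0.01 and the range ran from -0.19 to 0.38. No gene passed 2-fold (6.04%) or was 1.5-fold higher (6.51%) or lower (8.82%). At a mean of at least 200 reads, the 1.5-fold shares were 0.296% higher and 1.53% lower. The interval lay above 0 for *Etv5* alone (14.7%) and below 0 for *Etv4* alone (12.9%). On reads in place of read pairs, *Fgf4* and *Fgfr2* also lay above 0 and *Spry4* below 0.

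Mutant against wild type gave a median of 0.37. Again none passed 2-fold (11.6%), *Fgfr2* and *Spry4* were at least 1.5-fold higher (12.2%) and none was 1.5-fold lower (14.9%). Among the genes with a mean of at least 200 reads, 5.08% were 1.5-fold higher and 6.91% lower. Of the 9 members at that depth, 1 was higher and 0 lower. *Spry4*, at 0.59, was close to that bound of 0.585 and fell short of it with upper-quartile factors (0.56), with the GC and length correction (0.54) and relative to the median of its chromosome (0.48), while *Dusp4* passed it with the GC and length correction (0.64). The interval lay above 0 for 6 genes (23.9%), the same 6 that were higher after knockdown, and below 0 for 2 (23.7%), *Fgfr1* and *Etv4*. The 2 that were below 0 turned to 0.040 and 0.069 after the GC and length correction, while the 6 kept their direction.

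Knockdown against scrambled and mutant against wild type share no library. Across these comparisons 9 of the 10 genes had the same sign, the exception being *Spred1*, and 6 were higher in both. Among all tested genes 62.2% had the same sign and 30.5% were higher in both. *Fgf4* turned to 0.047 for mutant against wild type relative to the median of its chromosome. After the GC and length correction, *Fgf4*, *Fgfr1* and *Etv4* no longer had the same sign in both, with mutant to wild-type values of 0.0062, 0.040 and 0.069, and *Spred1* had it, at -0.24. The 6 genes that were higher in both comparisons are therefore the part of the pattern that did not turn with this setting.

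**Figure D3:**
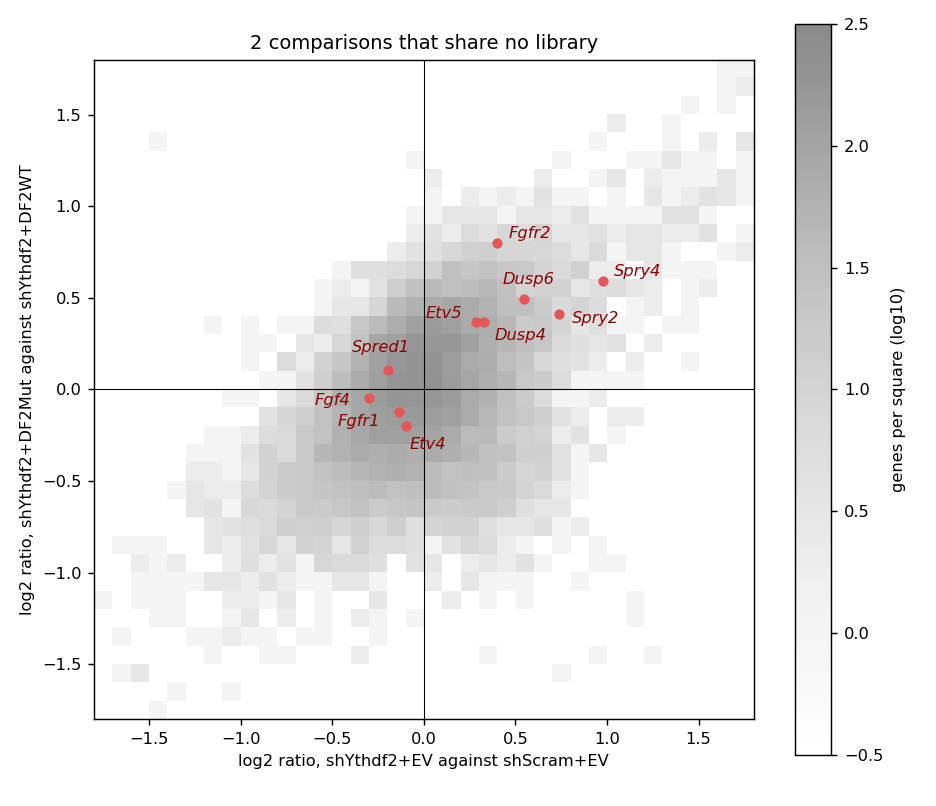
log2 ratio of mutant to wild-type YTHDF2 (vertical) against that of knockdown to scrambled (horizontal) for 10817 genes with a mean of at least 200 reads (grey squares, darker for more genes on a log10 scale; genes beyond the axes are not drawn) and for the 10 genes (red points). Of the 10, 6 lie in the upper right part, with *Spry4* farthest to the right and *Fgfr2* highest.

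The libraries can also be placed between scrambled (0%) and knockdown (100%) on the log2 scale, for the 9 genes whose knockdown interval excluded 0. These shares reuse both reference libraries and have no error from replicates. The mutant lay at 96.1% for *Dusp6*, 93.3% for *Spry2*, 87.9% for *Spry4* and 126% for *Etv5*, and at 43.6% for *Dusp4*, the other gene with a raised interval. The wild type lay at 5.76% for *Dusp6* and -4.67% for *Etv5*, close to scrambled, at 37.1% for *Spry2* and 27.4% for *Spry4*, and at -68.0%, below scrambled, for *Dusp4*. Thus the Sprouty genes stayed partly above the scrambled level with wild-type YTHDF2, and *Dusp6* and *Etv5* did not. For *Fgf4* the wild type lay at 61.5% and for *Spred1* at 154%, so both genes stayed below the scrambled level with the construct, while the mutant lay at 77.2% and 99.5%. *Fgfr1* and *Etv4*, whose knockdown differences were the smallest, had the wild type at -7.70% and -3.56% and the mutant at 81.9% and 199.9%.

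Markers of the 2-cell-like state, a rare state of ESC cultures that resembles the 2-cell embryo, had a summed level with the same order of libraries as the Sprouty genes and *Dusp6*, though not each gene had that order. The sum over 9 such genes was 135.8 CPM in the scrambled library, 463.8 in the knockdown library, 148.4 in the wild-type library and 409.0 in the mutant library. Of the 9, 9 were higher after knockdown and 8 were higher with the mutant than with the wild type, and *Tdpoz1* was at 0 in the scrambled library and the wild-type library. The part of these cells in the values of the 10 genes was not tested. Summed levels were 106.2, 113.6, 104.1 and 107.2 CPM for 6 markers of primed cells, mostly from *Dnmt3b*, and *T* was at 0 in all 4 libraries. After knockdown 4 were higher and 1 lower, and for mutant against wild type 2 and 3. *Fst* (59, 231, 70 and 188 reads) and *Sall2* (148, 410, 223 and 322) were higher in both. The 6 trophectoderm markers summed to 27.75, 27.1, 28.1 and 35.0, mostly from *Eomes*. Of these, 2 were higher and 4 lower after knockdown, and 3 and 3 for mutant against wild type. *Krt7* (64, 26, 74 and 26 reads), *Hand1* (89, 61, 99 and 46) and *Elf5* (14, 4, 28 and 12) were lower in both. The 7 fibroblast markers summed to 16.5, 11.6, 11.4 and 10.9 CPM, mostly from *Thy1* (448, 296, 317 and 243 reads). *Lum* and *Dcn* were at 0 throughout and *Col3a1* in the scrambled library and the wild-type library. After knockdown 3 of the 7 were higher and 2 lower, and for mutant against wild type also 3 and 2. *Col1a1* (51, 82, 50 and 87 reads) and *Col1a2* (20, 32, 2 and 14) were higher in both.

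The rest of the pathway did not share 1 direction. Among 9 other FGF ligands, 8 were tested (*Fgf5* was too low), and after knockdown 5 were at least 1.5-fold higher (13.8% of tested genes) and 2 lower (12.9%), with a median log2 ratio of 0.78 at mostly low counts. *Fgf1* had 263, 583, 293 and 434 reads, a knockdown ratio of 0.96 (0.66 to 1.27) and a mutant to wild-type ratio of 0.62 (0.31 to 0.93), so it had the order of the Sprouty genes. *Fgf17* had 187, 398, 322 and 294 reads and was 0.90 (0.54 to 1.27) higher after knockdown, but mutant and wild type lay within counting error, at -0.08 (-0.41 to 0.25).

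The 4 other receptors had a median of -0.22 after knockdown, with 0 at least 1.5-fold higher (13.8% of tested genes) and 1 lower (12.9%). The deepest, *Fgfr4*, ran opposite to *Fgfr2*, with 303, 268, 363 and 186 reads, a knockdown ratio of -0.36 (-0.71 to -0.02) and a mutant to wild-type ratio of -0.91 (-1.30 to -0.55). The relay from receptor to ERK was 22 genes, all tested, with a median of -0.10. After knockdown 0 were at least 1.5-fold higher (13.8%) and 1 lower (12.9%). The interval lay above 0 for 1 (23.2% of tested genes) and below 0 for 10 (22.8%). The gene past 1.5-fold was *Shoc2*, a scaffold that helps activate RAF, with 2135, 1541, 1718 and 1584 reads and a ratio of -0.66 (-0.79 to -0.52). *Mapk3*, which encodes ERK1, had 2007, 1669, 1891 and 1556 reads and a ratio of -0.45 (-0.59 to -0.32). For mutant against wild type, 0 relay genes were 1.5-fold higher (12.2% of tested genes) or lower (14.9%). The widest were *Sos1*, the RAS exchange factor, at 0.54 (0.37 to 0.72) and the adaptor *Frs3* at -0.54 (-0.88 to -0.22). After knockdown *Sos1* had the opposite sign, at -0.44 (-0.61 to -0.27), and *Frs3* stood at -0.11 (-0.49 to 0.27).

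Other inhibitors of the pathway numbered 14, with a median of 0.01 after knockdown (-0.10 with the GC and length correction). Of these, 2 were at least 1.5-fold higher (13.8% of tested genes) and 0 lower (12.9%). The 2 were shallow, *Spry3* with 2, 16, 2 and 20 reads and *Dusp2* with 20, 36, 24 and 26. Their intervals held 0, at -0.08 to 8.29 and -0.53 to 1.94. *Dusp1*, an immediate early phosphatase, had 2303, 1872, 2446 and 1672 reads and a knockdown ratio of -0.48 (-0.61 to -0.36), against the direction of *Dusp6*. *Dusp7*, a phosphatase of the *Dusp6* class, had 245, 382, 280 and 285 reads and a ratio of 0.45 (0.13 to 0.80). Its mutant to wild-type ratio was 0.07 (-0.28 to 0.42). For mutant against wild type, *Rasa1*, a RAS GTPase-activating protein, stood at 0.68 (0.55 to 0.81) and *Spred3* at 0.53 (0.17 to 0.90). Their knockdown ratios had intervals that held 0, at 0.10 (-0.02 to 0.22) and 0.05 (-0.28 to 0.37).

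The other transcriptional targets were 14 genes, 13 of them tested (*Fosl1* was too low). After knockdown 3 were at least 1.5-fold higher (13.8% of tested genes) and 2 lower (12.9%). Among the 3, *Egr2* had 12, 28, 4 and 10 reads and an interval that held 0 (-0.43 to 2.70). *Fos*, an immediate early gene that ERK induces through serum response factor, had 3623 reads in the scrambled library, 1323 in the knockdown library, 2551 in the wild-type library and 829 in the mutant library. Its knockdown ratio was -1.64 (-1.77 to -1.51) and its mutant to wild-type ratio -1.57 (-1.74 to -1.41), so it was highest where *Spry4* was lowest and low in the knockdown and mutant libraries. *Ier3*, another immediate early gene, stood at -2.01 (-2.32 to -1.72) for mutant against wild type with 572, 441, 954 and 228 reads. *Myc* had the signs of the Sprouty genes, with 286, 861, 452 and 765 reads, a knockdown ratio of 1.4 (1.13 to 1.69) and a mutant to wild-type ratio of 0.81 (0.57 to 1.05). *Myc* on one side and *Fos* and *Ier3* on the other thus had opposite signs in knockdown against scrambled and in mutant against wild type.

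**Figure D4:**
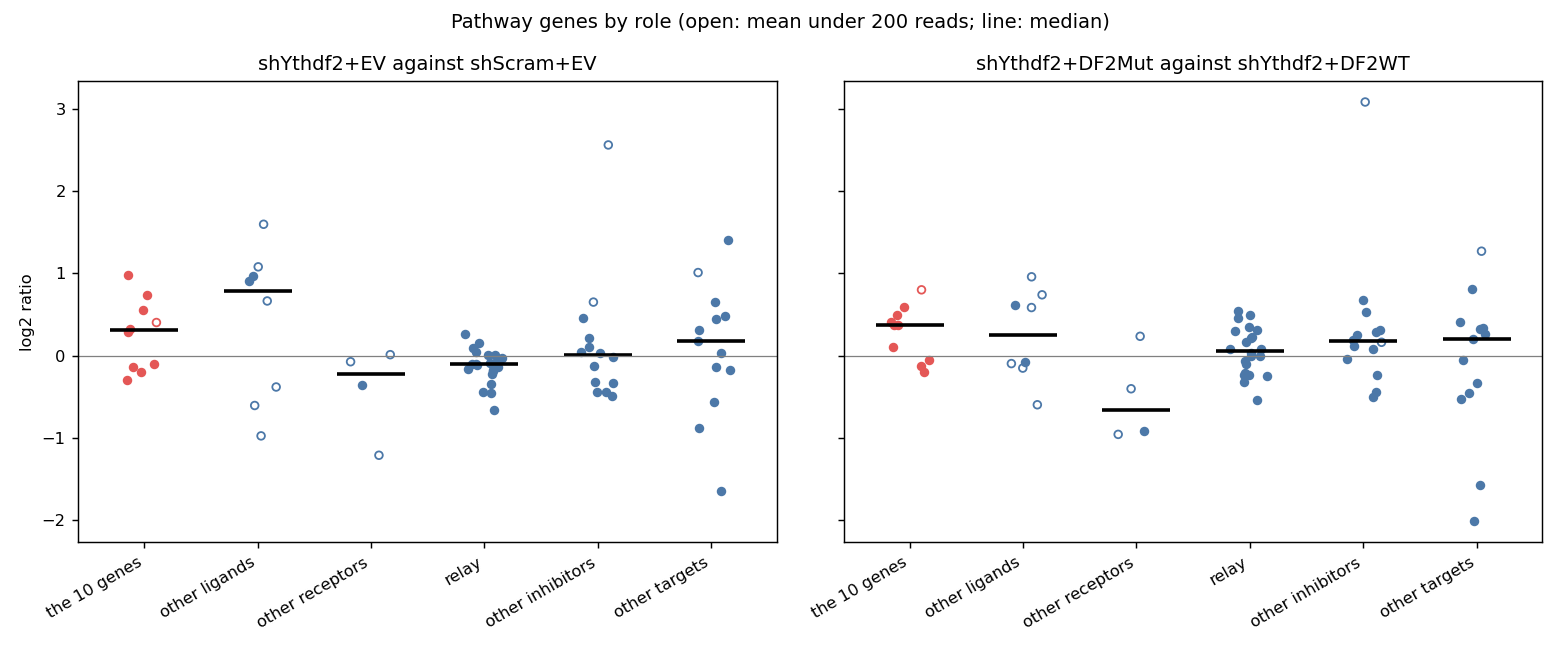
log2 ratio (vertical axis) of each tested gene in 6 pathway lists, for knockdown against scrambled (left) and mutant against wild type (right). Filled points have a mean of at least 200 reads, open points fewer, and black lines are medians. The relay genes run from -0.66 to 0.26 in the left panel and from -0.54 to 0.54 in the right. The other targets spread the widest among the filled points.

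Within the 10 genes, distances between patterns were taken as Euclidean distances of centred log2 CPM over the 4 libraries. The closest genes were *Fgfr1* and *Etv4* (0.0883), followed among the feedback genes by *Spry2* and *Dusp6* (0.18), *Dusp6* and *Etv5* (0.21) and *Spry2* and *Spry4* (0.215). *Fgf4* and *Spry4*, the ligand and the inhibitor, were the farthest apart (1.02). Outside the list, the genes nearest to *Spry4* among those with a mean of at least 200 reads were *Epc1* (0.07; 706, 1614, 947 and 1325 reads), *Pou4f1* (0.0813) and *Gask1b* (0.0823), and 64 of 10816 genes lay within 0.2. Nearest to *Fgfr2* were *Ttc17* (0.0625; 388, 567, 400 and 638 reads), *Dnajc25* (0.0724) and *Micu3* (0.0883), with 83 of 10817 genes within 0.2. Likeness over 4 points is a description of these libraries.

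The transcripts of the 10 genes were also compared for base composition and for GGACT, the most common form of the m6A consensus, in the longest GENCODE vM21 transcript (mm10), read on the transcript strand. GC content ran from 41.2% in *Spred1* to 58.7% in *Etv4*, with a median of 51.0% against 49.9% for 16726 tested genes. GGACT was found 3.35 times per kilobase in *Spry2* (7 copies), 2.86 in *Dusp6* (8 copies) and 2.19 in *Dusp4*, where the upper quartile of the tested genes was 1.504. In *Spry4*, the gene with the largest knockdown ratio, it was found 0.421 times per kilobase (2 copies), and in *Etv4* 0.418 times. *Spred1* had 0.665 and the rest between 1.32 and 1.59. The transcripts searched were 4755 bases long for *Spry4* and 2087 for *Spry2*, against deposited exon lengths of 10374 and 4440. The part of the motif in the ratios was not tested. A motif is not a measured m6A site, and no m6A data were used here.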

How the data were processed

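The authors deposited 1 table of read counts per gene for the 4 libraries. Per the file headers, it was made with featureCounts 2.0.3 on UCSC mm39 RefSeq exons summed by gene symbol, without strand, and without reads that aligned to several places or overlapped several genes. The processing notes of the submitters name fastp 0.19.4, HISAT2 2.2.1, DESeq2 1.40.2 and the build mm10. Coordinates of genes are the table's. Counts are of reads, both mates included, so intervals were computed on reads divided by 2. Amplified reads are not independent molecules, and the floor of 3 counts per library was worth 0.0835 to 0.0949 CPM. The methods of the study describe replicates, but the labels give 1 library per group.

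Counts were scaled by the TMM method (edgeR 4.0.16, R 4.3.3), a prior count of 0.5 was added, and log2 ratios were taken for genes with a mean of at least 10 reads. The rules counted were a ratio of at least 2-fold or 1.5-fold and a 95% interval off 0. Because there are no replicates, the count test was not run. All 10 genes were named. In the other lists, the 2 genes with the widest knockdown and the 2 with the widest mutant to wild-type ratio at a mean of at least 200 reads were named, with the 3 nearest in pattern to *Spry4* and *Fgfr2*. The 10 genes and the lists were chosen with earlier results of these data known. Alternatives were scaling by total counts, by upper quartiles or by the size factors of DESeq2 1.42.0, a prior count of 5, other low-count filters, values relative to the chromosome's median, summed counts, intervals on reads, and a correction for GC content and exon length with mgcv 1.9.3. Scripts were tested on simulated data.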

Additional observations from a re-analysis of the deposited data

How the results depend on the processing

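Over 464 values of 72 results under the alternatives, 439 stayed within their error (counts within 1.5 times), 21 moved beyond it and 4 more turned sign from an interval that excluded 0. No paired analysis was possible because each group has 1 library and no result comes from a test. No library could be left out for the same reason. Counting also values within error of 0 and list medians, 18 turned sign, 11 of single genes and 7 of lists, and 8 and 3 of these came with correcting for GC content and exon length. So did the 4 above: *Fgfr1* and *Etv4* moved to -0.035 and -0.13 for wild type against knockdown, and to 0.040 and 0.069 for mutant against wild type. *Spred1* turned to 0.15 and -0.24 in the same comparisons. Under that setting, the relay medians moved to 0.084 for wild type against knockdown and 0.049 for mutant against knockdown. Those of the other inhibitors moved to -0.10 for knockdown and -0.001 for wild type against knockdown, and those of the other targets to -0.089 for wild type against knockdown and -0.037 for mutant against wild type. The cause was not tested. The median of the 10 genes after knockdown was 0.11 as a ratio of summed counts, in which the deep genes weigh most. *Spry4* passed 2-fold after knockdown with total counts and with the GC correction, so that 1 gene was counted in place of 0. At 1.5-fold in place of 2-fold, 2 genes were counted for knockdown and 2 for mutant against wild type, and 1 lower for wild type against knockdown. On reads in place of read pairs, 7 of 40 intervals changed side of 0, 3 of them of *Fgfr2*, whose counts of 111 to 192 reads limit what can be said of it. For mutant against knockdown, the intervals of *Fgf4*, *Fgfr2* and *Spry4* came to exclude 0.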
